A study of Mus musculus with 10 samples.

Results

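Imprinted genes are expressed mainly from the allele of 1 parent, and 46 such mouse genes were examined here for binding of the KRAB zinc finger protein ZFP266. The genes were taken from a list of known imprinted genes and of the genes that share their clusters, and all 46 were found among the 26182 genes with a curated RefSeq transcript on GRCm38. A gene was counted as having a peak when a ZFP266 DamID-seq peak overlapped it or lay within 10 kb of it. The study mapped ZFP266 in mouse embryonic fibroblasts (MEFs) with DamID-seq, in which a protein is fused to the bacterial adenine methyltransferase Dam and the GATC sites it methylates are read by sequencing. It compared 5 samples with Dam-Zfp266 and 5 samples with Dam only. Both groups were MEFs of the 129 strain, of which 100000 were nucleofected with either the PGK-mO-Dam or the PGK-mO-Dam-Zfp266 plasmid. In both plasmids mOrange is the first open reading frame behind the PGK promoter and the Dam protein is made at a low level by translation reinitiation, so ZFP266 came from a transgene. After 48 h, transfected cells were sorted, as mOrange-positive cells by the labels but as GFP-positive cells by the methods of the study, and each library was made from 32 ng of genomic DNA. All 10 samples entered 1 list of 15119 peaks of Dam-Zfp266 over Dam only, so the values give no replicate error and no read depth for any gene, values of single samples were not used here, and no p was computed. Each peak is 1 or more neighbouring fragments between GATC sites, and the parental alleles cannot be told apart in it. The identity of the cells was not checked against marker genes, since the list holds no expression values.

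Imprints are DNA methylation marks laid down in the germline of 1 parent, mostly of the mother, at regions that often contain the start of a transcript. After fertilisation, the KRAB zinc finger proteins ZFP57 and ZFP445 bind the methylated copy and recruit TRIM28 with histone and DNA methyltransferases, which keeps the mark through the genome-wide loss of methylation in the early embryo. ZFP57 recognises the methylated hexamer TGCCGC. In fibroblasts the imprints are already in place and are copied at each cell division.

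Of the 46 imprinted genes, 21 (45.7%) had a peak in the gene or within 10 kb, beside 26.0% of all 26182 genes. A peak in the gene itself was found for 19 (41.3%), beside 15.5% of all genes, and the remaining 2, *Igf2* and *Meg3*, had peaks upstream. A peak within 1 kb of a transcript start was found for 8 (17.4%), beside 4.71% of all genes, and 4 had a start inside a peak, beside 1.83% of all genes. With only the stricter peaks, those of an FDR below 0.05 that also had a signal value over 1, 10 imprinted genes (21.7%) had a peak in the gene or within 10 kb, beside 9.52% of all genes. The median distance from the gene to the nearest peak was 17773 bp for the imprinted genes and 52999.5 bp for all genes.

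The imprinted genes were longer than most genes, with a median length of 34971 bp beside 13451 bp, and long genes met a peak more often. All genes were ordered by length and cut into 10 bands of equal number. Among the other genes of the longest band, 58.4% had a peak in the gene or within 10 kb, whereas in the shortest band it was 11.2%. With the share of the other genes in its band given to each imprinted gene, 14.9 of the 46 would have had a peak in the gene or within 10 kb, where 21 did. The number expected from length in the same way was 10.9 for a peak in the gene, where 19 had one, and 5.77 for a stricter peak in the gene or within 10 kb, where 10 had one. Gene length therefore went with part of the difference from all genes. Of the 10 host genes and genes of mixed imprinting, 8 had a peak in the gene or within 10 kb where 4.26 were expected. Of the other 36 genes, 13 (36.1%) had one where 10.6 were expected. Another split, which overlaps this one, gave 10 of the 17 genes with a germline methylated region at a start, where 5.3 were expected. By length, chosen after seeing the bands, 11 of the 14 imprinted genes of 29428 to 93866 bp had a peak where 5.29 were expected, and 5 of the 10 in the longest band did, where 58.4% of the other genes had one. Imprinted genes often overlap each other, and 12 of the peaks were counted for more than 1 gene. When members whose windows touch were joined, 34 loci remained, and 16 of them held a peak. Taking the longest gene of each locus, 16 of 34 (47.1%) had a peak where 12.2 were expected from length.

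**Figure D1:**
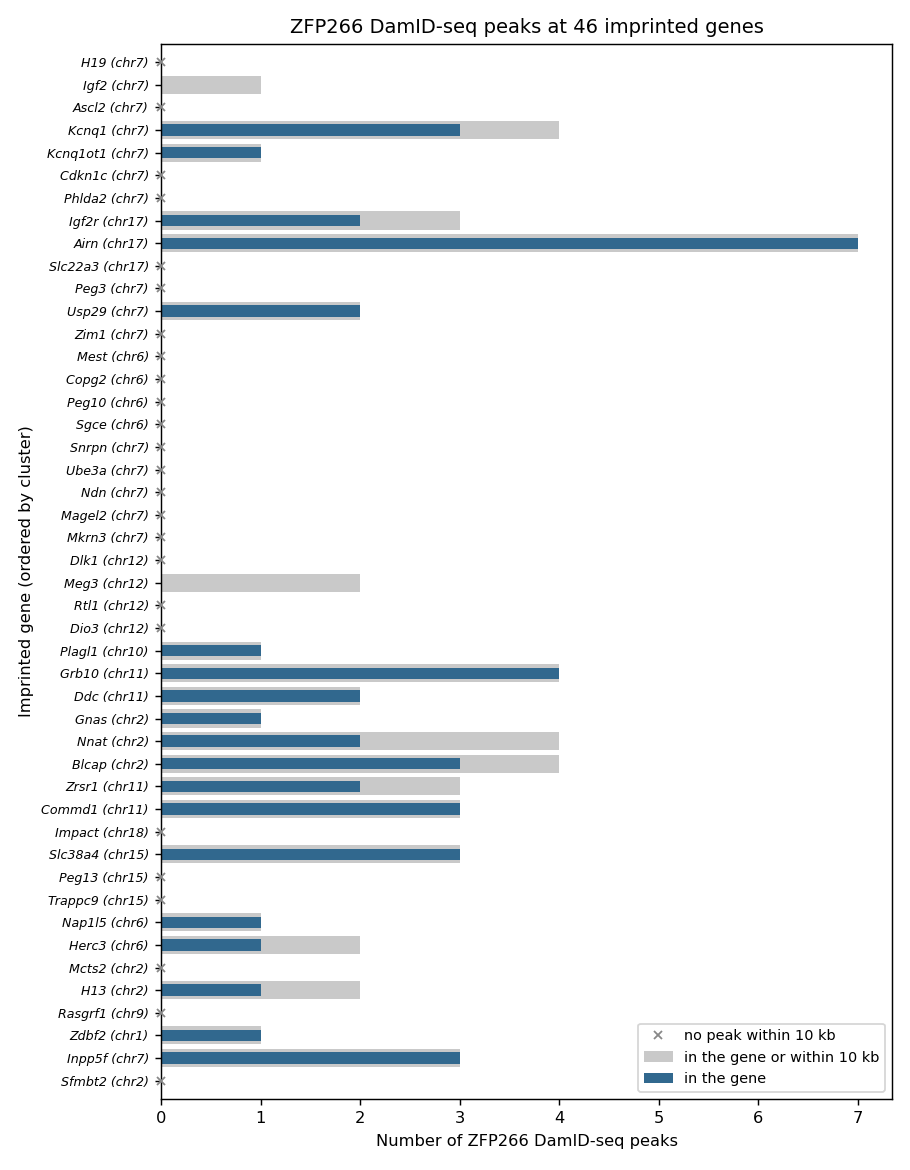
Number of ZFP266 DamID-seq peaks at each of the 46 imprinted genes, ordered by cluster, with the chromosome after the gene name. Blue bars count the peaks in the gene, grey bars those in the gene or within 10 kb, and crosses mark the 25 genes with no peak within 10 kb. *Airn*, with 7, has the most peaks.

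**Figure D2:**
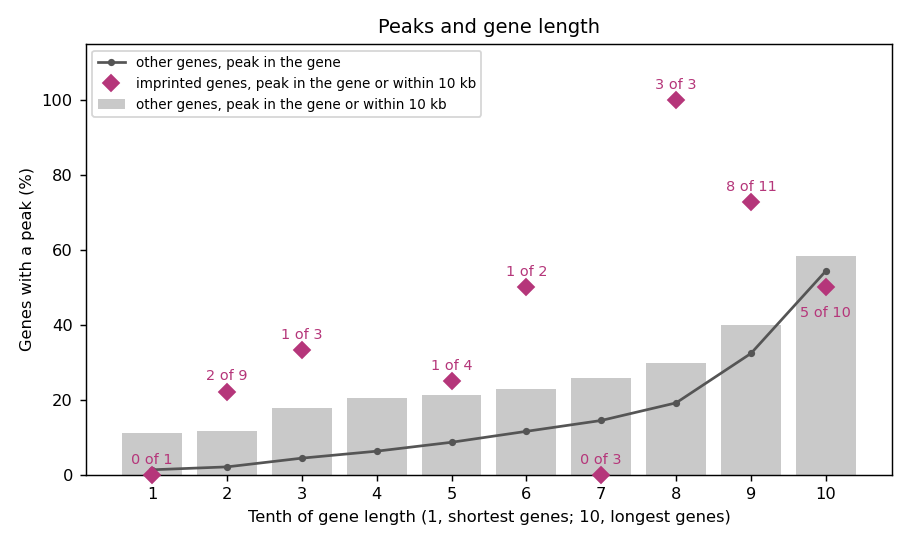
Share of genes with a peak (%) by band of gene length, each with the same number of genes, from the shortest (1) to the longest (10). Grey bars are the other genes with a peak in the gene or within 10 kb, the line is the other genes with a peak in the gene, and diamonds are the imprinted genes with their counts, 8 of 11 in band 9 and 5 of 10 in band 10.

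The windows of the 46 genes, with 10 kb to each side, covered 4.07 Mb and held 42 peaks, which is 10.3 peaks per Mb. The same measure was 7.59 peaks per Mb over all genes and 5.71 over the ungapped genome. Peaks took up 2.13% of the bases in these windows, beside 1.53% over all genes. The density of GATC sites, which sets how finely peaks can be placed, was close to that of other genes, with a median of 2.33 sites per kb beside 2.44. Of the 42 peaks, 12 touched an exon of an imprinted gene, 23 lay within introns, 6 were upstream and 1 was downstream.

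These 42 peaks were of ordinary size and strength. The signal value, which the peak caller gave to compare Dam-Zfp266 with Dam only and whose scale is not stated, ran from 0.369 to 1.63 with a median of 0.948, beside a median of 0.898 over all 15119 peaks. The −log10 q ran from 1.02 to 3.48 with a median of 1.44, beside 1.33 over all peaks. The length ran from 544 to 6755 bp with a median of 1919 bp, beside 1777 bp. The share of stricter peaks was 26.2% (11 of 42), beside 26.4% of all peaks. The labels could be checked at *Zfp266* itself, whose plasmid copy adds sequence in the Dam-Zfp266 samples: its 5 peaks were the 5 highest of the list, with signal values of 5.24 to 8.66.

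Of the 46 genes, 17 were taken to carry a germline methylated region at 1 of their transcript starts, an assignment made from general knowledge and not from a file. It may miss genes. Where genes share a promoter, as *Peg3* does with *Usp29* and *Peg10* with *Sgce*, the region was assigned to 1 gene of the pair, so *Usp29* and *Sgce* are among the 29 others. *Zdbf2* was also counted among the 29, although its first start, at 63200358 and 64451 bp from a peak, was not checked for such a region. Of the 17, 10 had a peak in the gene or within 10 kb, where 5.3 were expected from length, and of the 29 others 11 did, where 9.59 were expected, beside 26.0% of all genes. At the starts themselves, 6 of the 17 had a peak within 1 kb, where 0.848 were expected, and 2 of the 29 others did, where 1.42 were expected, beside 4.71% of all genes. The 6 genes were *Airn*, *Nnat*, *Zrsr1*, *Plagl1*, *Nap1l5* and *Inpp5f*, and 3 of them, *Airn*, *Nnat* and *Zrsr1*, had a start inside a peak. By signal value, the peaks nearest these starts were below the median of all peaks, 0.898, except at *Zrsr1* (1.08). They had 0.816 at *Airn*, 0.615 at *Nnat*, 0.545 at *Plagl1*, 0.767 at *Nap1l5* and 0.395 at *Inpp5f*. For *Inpp5f* the peak lay near the start of the long transcript, whereas the imprinted start is that of the short transcript, 11094 bp from the nearest peak, so that 5 of the 17 had a peak at the imprinted start. The 2 other genes were *Commd1* and *Blcap*, the hosts in whose introns *Zrsr1* and *Nnat* lie. The peaks nearest their starts had signal values of 1.06 and 0.369. Over all 46 genes, 2.27 were expected to have a peak within 1 kb of a start from gene length and 2.7 from the CpG content around the start, where 8 did. The starts of imprinted genes were richer in CpG than those of other genes, with a median observed over expected ratio of 0.743 in the surrounding 1000 bp beside 0.539. Few of these peaks at starts were among the stricter ones: 2 of the 46 genes (4.35%) had a stricter peak within 1 kb of a start, *Commd1* and *Zrsr1*, beside 1.12% of all genes, and both were counted by the same peak.

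The expressed allele of each gene was likewise assigned from general knowledge. Of 26 genes expressed from the paternal allele, 10 (38.5%) had a peak in the gene or within 10 kb, where 7.84 were expected from length. Of 10 expressed from the maternal allele, 3 (30.0%) had one, where 2.8 were expected, close to the 26.0% of all genes. Of the 10 host genes and genes whose imprinting depends on the transcript or tissue, 8 had one, where 4.26 were expected, and 3 of the 8 had a peak within 1 kb of a start, where 0.586 of the 10 were expected. A peak within 1 kb of a start was found for 5 of the 26 paternally expressed genes, where 1.24 were expected. It was found for 0 of the 10 maternally expressed ones, where 0.447 were expected. Of all genes, 4.71% had a peak within 1 kb of a start.

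The *Igf2r* cluster on chromosome 17 held the most peaks. *Igf2r*, the receptor that takes up and degrades the growth factor IGF2, is expressed from the maternal allele, and *Airn*, a long non-coding RNA that starts in an intron of *Igf2r* on the other strand, silences it on the paternal allele. A peak of 1 fragment at chr17:12740378-12741587 covered the start of *Airn* at 12741311, with a signal value of 0.816 and a −log10 q of 1.14. Near the start of *Igf2r*, a peak at chr17:12763925-12767711 lay in an intron, 1995 bp from the start, with a signal value of 0.959. A further peak at chr17:12775577-12779480, 5871 bp upstream of *Igf2r* and inside *Airn*, had a signal value of 0.94. The *Igf2r* start thus had a peak on each side, and their −log10 q of 2.77 and 3.06 were above the median of all peaks. The highest of the 7 peaks in *Airn* by signal value was at chr17:12788312-12789096, with a signal value of 1.29, and the lowest reached 0.616. *Slc22a3*, an organic cation transporter of the same cluster that *Airn* silences in the placenta, had no peak closer than 114887 bp.

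*Nnat*, which encodes the small membrane protein neuronatin, lies in an intron of *Blcap* on chromosome 2, and 4 peaks lay within 10 kb of both genes. The peak at chr2:157559641-157561927 covered the start of *Nnat* at 157560078, with a signal value of 0.615 and a −log10 q of 1.16. A peak at chr2:157562314-157562916 overlapped the end of *Nnat* with a signal value of 1.01. The other 2 peaks lay at chr2:157556589-157557722, over an exon at the end of *Blcap*, with a signal value of 1.14, and at chr2:157566744-157569370, 383 bp upstream of the *Blcap* start, with a signal value of 0.369. The pair of genes was thus overlapped or bordered by peaks at both of its ends and at the imprinted start.

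*Zrsr1*, a copy of a splicing factor gene made by retrotransposition, lies in an intron of *Commd1*, a gene of copper handling and NF-kB control, on chromosome 11. The peak at chr11:22970719-22972041 covered the start of *Zrsr1* at 22972005, with a signal value of 1.08 and a −log10 q of 1.2. The neighbouring peak at chr11:22972194-22973165, with a signal value of 1.06, covered the start of a short *Commd1* transcript at 22972866 and the first part of *Zrsr1*. The third peak, at chr11:22965828-22968477, lay 3528 bp upstream of *Zrsr1* with a signal value of 1.45, and its −log10 q of 3.48 was the highest of the 42 peaks. The second of these is the stricter peak that counts for the starts of both genes, whereas the one over the *Zrsr1* start is not among the stricter peaks.

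*Nap1l5*, a nucleosome assembly protein gene that also arose by retrotransposition, lies in an intron of the ubiquitin ligase gene *Herc3* on chromosome 6. A peak of 1 fragment at chr6:58903508-58906648 overlapped *Nap1l5* and ended 478 bp from its start at 58907126, with a signal value of 0.767 and a −log10 q of 1.86. *Herc3* had a further peak at chr6:58825211-58829291, 2174 bp upstream of its start, with a signal value of 0.84. *Mcts2*, a retrotransposed gene in an intron of *H13* on chromosome 2, lay just outside the 10 kb limit, with its nearest peak at 13568 bp. That peak, at chr2:152701514-152702620, was in an intron of *H13*, the signal peptide peptidase gene, with a signal value of 0.651, and a peak at chr2:152715962-152718371, 7294 bp downstream of *H13*, had a signal value of 1.04. *Peg13*, a non-coding RNA in an intron of the trafficking gene *Trappc9* on chromosome 15, had no peak closer than 339584 bp, and *Trappc9* none closer than 88704 bp. Of the 6 genes that lie wholly inside another of the 46 genes, 4 (*Kcnq1ot1*, *Nnat*, *Zrsr1* and *Nap1l5*) had a peak in the gene, where 0.468 were expected from their own length and 15.5% of all genes had one. Of their 6 hosts, 5 had a peak in the gene, and the peaks in the nested genes are among those of the hosts, so these counts are not separate from each other. Most hosts are longer. In their length bands, the share of other genes with a peak in the gene was 54.4% for *Kcnq1* and *Trappc9* and 32.4% for *Commd1* and *Herc3*. It was 19.2% for *H13* and 8.68% for *Blcap*.

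**Figure D3:**
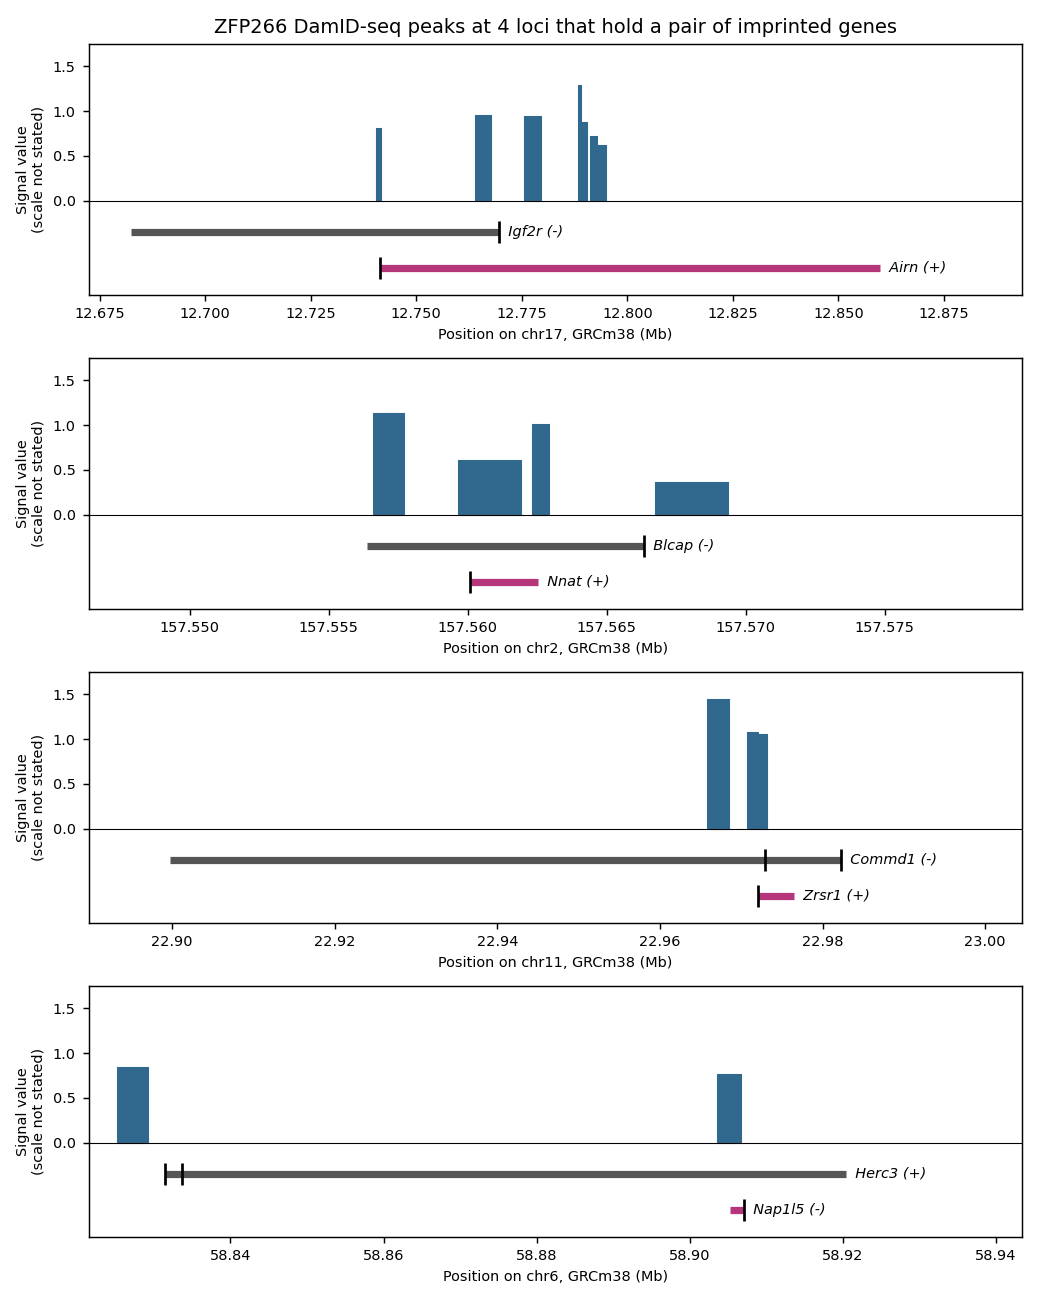
Maps of 4 loci, with position on GRCm38 in Mb on the x axis and the signal value of each peak (scale not stated) as the height of its blue block. Lines below are genes with their strand, in pink where the gene carries a germline methylated region at its start, and black ticks are transcript starts. A peak covers the starts of *Airn*, *Nnat* and *Zrsr1*, and 1 ends 478 bp from that of *Nap1l5*.

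*Plagl1*, a zinc finger transcription factor that restrains growth, lies on chromosome 10 and is expressed from the paternal allele. Its peak at chr10:13091196-13094174 began 364 bp after the start of the gene at 13090832, with a signal value of 0.545 and a −log10 q of 1.48. In *Grb10* on chromosome 11, an adaptor gene that damps growth factor signalling and is expressed from opposite alleles in most tissues and in neurons, 4 peaks lay in introns. The longest of the 42 peaks, chr11:12018828-12025582, had a signal value of 1.13 and a −log10 q of 2.97 and lay 2389 bp from the start at 12027971. A peak at chr11:12029404-12030963, with a signal value of 0.855, was 1433 bp from the same start on its other side. The remaining peaks, at chr11:12003920-12006949 and chr11:12010140-12012594, had signal values of 0.988 and 0.873. The internal start of *Grb10* was therefore flanked by peaks but not covered by one. *Ddc*, the neighbour that encodes aromatic L-amino acid decarboxylase, had peaks in introns at chr11:11825313-11826721 and chr11:11868360-11870364, with signal values of 0.962 and 0.97.

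*Slc38a4*, an amino acid transporter gene on chromosome 15 that is imprinted in the placenta and other tissues, had 3 peaks in its introns, and all 3 were among the stricter ones. They lay at chr15:97023629-97025906, chr15:97038558-97040591 and chr15:97048642-97051361, with signal values of 1.13, 1.05 and 1.04. None of the other imprinted genes had 3 stricter peaks. *Gnas*, which encodes the stimulatory G protein alpha subunit and several transcripts with their own starts on chromosome 2, had 1 peak at chr2:174293153-174294464, 3395 bp from the start at 174297859, with a signal value of 0.824. *Inpp5f*, a phosphoinositide phosphatase gene on chromosome 7, had peaks at chr7:128612120-128614936, chr7:128617724-128619556 and chr7:128676179-128677776, with signal values of 0.395, 0.698 and 1.28. The first of them was 755 bp from the start of the long transcript. *Zdbf2*, a gene on chromosome 1 that promotes growth after birth, had 1 peak at chr1:63270649-63271192, the shortest of the 42, with a signal value of 0.956, 2077 bp from an internal start at 63273269.

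On distal chromosome 7, *H19*, a long non-coding RNA expressed from the maternal allele, and *Igf2*, the fetal growth factor expressed from the paternal allele, share a control region upstream of *H19*. Both genes and the DNA between them lay in a stretch of 0.133 Mb without a peak, chr7:142537004-142669727. The peak that ended this stretch, chr7:142669728-142671898, lay 2912 bp upstream of *Igf2* with a signal value of 1.01 and a −log10 q of 1.36. *Igf2* was thus counted by a peak on the side away from the control region. In the neighbouring cluster, *Kcnq1*, a potassium channel gene, had 4 peaks. They lay at chr7:143100962-143102296, 4958 bp upstream, and inside the gene at chr7:143116042-143116696, chr7:143155594-143156414 and chr7:143277117-143278002, with signal values of 0.696, 1.06, 0.87 and 1.02. The last of them also lay in *Kcnq1ot1*, the paternal non-coding RNA that silences the cluster, but 18545 bp from its start, where the control region is. *Cdkn1c*, a cell cycle inhibitor, *Phlda2*, a growth restraint gene of the placenta, and *Ascl2*, a trophoblast transcription factor, had no peak closer than 166673, 125199 and 131698 bp.

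On chromosome 12, *Meg3*, the maternal non-coding RNA of the *Dlk1* cluster, had 2 peaks upstream and none in the gene. The nearer, chr12:109538292-109539669, was 1327 bp from its start at 109540996 and had the highest signal value of the 42 peaks, 1.63, which ranked 195 in the list, with a −log10 q of 2.55. The farther, chr12:109535717-109538068, had a signal value of 0.815. The germline control region of this cluster lies between *Dlk1* and *Meg3*, where no further peak was found upstream of these as far as the start of *Dlk1*. *Dlk1*, a NOTCH-like protein gene that restrains fat cell formation, *Rtl1*, a retrotransposon-derived gene of the placenta, and *Dio3*, which inactivates thyroid hormone, are expressed from the paternal allele and had their nearest peaks at 26696, 49524 and 183460 bp.

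In the *Peg3* cluster on proximal chromosome 7, the zinc finger gene *Peg3* and its neighbour *Zim1* had no peak closer than 48513 and 82500 bp. *Usp29*, a ubiquitin peptidase gene that shares the *Peg3* promoter and runs the other way over 236637 bp, had peaks at chr7:6778932-6780176 and chr7:6909868-6913779, with signal values of 0.635 and 0.611. The nearer of them was 48349 bp from the shared promoter. Of the other genes in the longest band, 58.4% had a peak in the gene or within 10 kb, so a peak in *Usp29* is common for that band.

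The 25 genes without a peak in the gene or within 10 kb included all 5 of the Prader-Willi and Angelman region on central chromosome 7. *Ndn* and *Magel2*, of the MAGE family, and *Mkrn3*, a RING finger gene whose human form restrains puberty, lay together in a stretch of 2.14 Mb without a peak, chr7:61341387-63482193, at 1006891, 1035593 and 1062041 bp from the nearest peak. *Snrpn*, a spliceosome gene whose start holds the control region, and the ubiquitin ligase gene *Ube3a* lay in the adjoining stretch of 2.13 Mb, of which 2.35% is unsequenced, with *Snrpn* at 768238 bp. Of the 15098 stretches between neighbouring peaks, 0.735% were at least as long as the former and 0.748% at least as long as the latter, but such long stretches together took up 16.3% and 16.5% of the genome. A single peak, chr7:61340064-61341386, thus parted the *Ndn* side from the *Snrpn* side. *Ube3a*, at 14493 bp, was just outside the 10 kb limit, near the peak that bounds the stretch.

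The 5 genes nearest to a peak among the 25 were *Mcts2* (13568 bp), *Ube3a* (14493 bp), *Copg2* (21053 bp), *Dlk1* (26696 bp) and *Impact* (28124 bp). The 5 farthest were *Mkrn3*, *Magel2*, *Ndn*, *Snrpn* and *Peg13*. *Copg2* encodes a coat protein of Golgi vesicles, and *Impact*, which has a methylated intron start on chromosome 18, encodes a regulator of translation. *Mest*, a hydrolase-like gene that overlaps *Copg2*, had its nearest peak at 114806 bp. *Mest* and *Copg2* lay in a stretch of 0.299 Mb without a peak, of which 16.7% is unsequenced. The pair *Peg10*, a retrotransposon-derived gene needed in the placenta, and *Sgce*, the epsilon sarcoglycan gene, had their nearest peaks at 255943 and 182987 bp. *Rasgrf1*, a Ras exchange factor gene, and *Sfmbt2*, a Polycomb group gene with a role in trophoblast, had theirs at 32456 and 34665 bp. *Sfmbt2* and *Trappc9* are long, at 224803 and 471585 bp, and lay in stretches of 1.08 and 1.62 Mb without a peak. No imprinted gene had its nearest peak between 5 and 10 kb, so 21 also had a peak in the gene or within 5 kb, beside 21.4% of all genes.

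What these peaks share was examined in their sequence, read from GRCm38, which is of another strain than the cells. B1 SINEs, short mouse repeats derived from 7SL RNA, are where ZFP266 has been proposed to sit in MEFs. A B1 SINE of at least 80 bp at 70% identity to a consensus built from the genome was found in 14 of the 42 peaks (33.3%, Wilson 95% interval 21.0 to 48.4), beside 29.9% of all peaks. From the shares among all peaks of similar length, 12.8 of 42 would have had one. With at least 100 bp at 85% identity it was 9 (21.4%), beside 22.2% of all peaks and 9.54 expected. The AP-1 core motif, TGACTCA or its reverse complement TGAGTCA, was found in 19 (45.2%, interval 31.2 to 60.1), beside 44.2% of all peaks. Over whole peaks, both shares were close to those of all peaks. In the central 500 bp, 8 peaks held a B1 SINE, where 5.58 were expected from the shares among all peaks of similar length. The hexamer TGCCGC, sought on both strands, was found in 10 (23.8%, interval 13.5 to 38.5), beside 14.4% of all peaks and 6.25 expected from peak length. In the central 500 bp it was found in none of the 42, beside 4.06% of all peaks. The intervals cover counting error only, and neighbouring peaks are not independent.

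Some, but not all, of the peaks at imprinted starts were rich in CpG. The median observed over expected CpG ratio of the 42 peaks was 0.206, beside 0.187 over all peaks, but 2 peaks (4.76%) reached 0.6, beside 0.582% of all peaks. They were the peak over the *Nnat* start, at 0.694, and the peak over the short *Commd1* start and the first part of *Zrsr1*, at 0.886, which ranked 9 among all 15119 peaks. The peak that began after the *Plagl1* start followed with 0.455, a ratio reached by 2.18% of all peaks. The peaks over the *Airn* and *Zrsr1* starts had 0.298 and 0.246, nearer the median. Repeats took up a median of 23.1% of the bases of the 42 peaks, beside 24.5%, and the median GC content was 44.9%, beside 43.5%.

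To show what lies at these starts, the 250 bases before the start are given for the 5 genes with a germline methylated region and a peak within 1 kb of the imprinted start, as RefSeq gives them on GRCm38.p6, with each CpG in capitals. Of the 46 genes, 37 were matched in this set of promoters, and *Cdkn1c*, *H19*, *Impact*, *Kcnq1*, *Peg10*, *Peg13*, *Rtl1*, *Sgce* and *Trappc9* were not. The regions are chr17:12741061-12741310 on the plus strand for *Airn*, chr2:157559828-157560077 on the plus strand for *Nnat*, chr11:22971755-22972004 on the plus strand for *Zrsr1*, chr10:13090582-13090831 on the plus strand for *Plagl1* and chr6:58907127-58907376 on the minus strand for *Nap1l5*. The first 3 lie wholly inside a peak, those of *Plagl1* and *Nap1l5* outside. Apart from that of *Plagl1*, each lies in an intron of the gene on the other strand, *Igf2r*, *Blcap*, *Commd1* or *Herc3*.
Airn: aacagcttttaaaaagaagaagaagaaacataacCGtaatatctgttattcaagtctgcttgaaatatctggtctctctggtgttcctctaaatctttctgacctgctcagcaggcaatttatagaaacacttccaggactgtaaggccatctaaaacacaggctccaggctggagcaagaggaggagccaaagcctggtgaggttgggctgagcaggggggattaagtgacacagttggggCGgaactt
Nnat: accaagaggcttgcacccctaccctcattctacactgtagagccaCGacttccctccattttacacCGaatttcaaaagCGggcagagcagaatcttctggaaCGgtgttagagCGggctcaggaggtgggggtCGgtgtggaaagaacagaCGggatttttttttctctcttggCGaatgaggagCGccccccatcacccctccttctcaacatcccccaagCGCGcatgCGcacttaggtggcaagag
Zrsr1: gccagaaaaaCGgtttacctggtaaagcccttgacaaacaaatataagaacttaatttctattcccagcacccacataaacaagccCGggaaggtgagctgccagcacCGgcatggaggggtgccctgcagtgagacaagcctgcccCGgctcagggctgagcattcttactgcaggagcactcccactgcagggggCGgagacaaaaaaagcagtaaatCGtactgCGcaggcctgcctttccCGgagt
Plagl1: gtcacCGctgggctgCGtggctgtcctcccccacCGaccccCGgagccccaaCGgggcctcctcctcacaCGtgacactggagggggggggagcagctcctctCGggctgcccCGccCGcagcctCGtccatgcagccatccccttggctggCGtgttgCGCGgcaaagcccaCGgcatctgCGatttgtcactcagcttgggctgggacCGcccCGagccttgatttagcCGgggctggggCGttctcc
Nap1l5: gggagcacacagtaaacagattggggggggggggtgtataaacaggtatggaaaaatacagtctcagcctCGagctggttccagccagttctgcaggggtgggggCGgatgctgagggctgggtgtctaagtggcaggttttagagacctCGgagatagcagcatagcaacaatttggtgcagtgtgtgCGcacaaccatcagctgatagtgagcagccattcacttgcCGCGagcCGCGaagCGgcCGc
They held 2, 12, 8, 19 and 10 CpGs, beside a median of 10.5 over the 56 promoters of imprinted genes and of 6 over all 32851 promoters of the same length. On either strand, TGCCGC was found once in *Plagl1* and once in *Nap1l5*, and not in the other 3, whereas 9 of the 56 promoters of imprinted genes and 8.68% of all promoters held it. The *Airn* promoter held the fewest CpGs and that of *Plagl1* the most.

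In the peak over the *Nnat* start, TGCCGC was found 8 times on the 2 strands, a number reached by few peaks (rank 3 of 15119). Of these matches, 3 fell within 100 bases of an intron just after the start, chr2:157560299-157560398 on the plus strand, shown with TGCCGC in capitals.
Nnat intron: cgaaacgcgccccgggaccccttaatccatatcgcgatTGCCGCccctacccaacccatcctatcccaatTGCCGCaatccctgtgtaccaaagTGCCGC
The other matches lay on either side of the start. A match is a run of letters and does not show that ZFP57 or ZFP266 binds there.

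B1 SINEs in the peaks of imprinted genes ranged from close copies to worn ones. Of 20 stretches found, 7 were over 90% identical to the consensus. An AP-1 core motif lay inside 1 of the 20. Elsewhere the motif stood outside B1 SINEs, as in the *Commd1* peak with the highest −log10 q, at chr11:22967835-22967921 on the plus strand, in an intron, shown with the motif in capitals.
Commd1 peak: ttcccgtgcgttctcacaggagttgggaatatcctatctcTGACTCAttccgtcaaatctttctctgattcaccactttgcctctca
The peak over the *Airn* start and the peak upstream of *Meg3* with the highest signal value held an AP-1 core motif and no B1 SINE, the peak over the *Zrsr1* start held a B1 SINE and no AP-1 core motif, and the peak over the *Nnat* start held neither.

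Other listed genes, mostly neighbours of these clusters, met peaks about as often as their length predicts. Of 32 listed, 31 were found in the annotation. Among them, *Htr2a* on chromosome 14 and *Dcn* on chromosome 10 lie far from all 46 genes, and neither had a peak within 10 kb. Of these 31, 10 had a peak in the gene or within 10 kb, where 9.87 were expected from length, beside 26.0% of all genes. A peak in the gene was found for 6 of the 31, beside 15.5% of all genes. These 6 were *Ago2*, *Atp10a*, *Cobl*, *Ppp1r9a*, *Slc22a2* and *Tnfrsf23*. *Ago2*, the small RNA nuclease next to *Trappc9*, had 5 peaks in the gene, and *Slc22a2*, next to *Slc22a3*, had 1 with a signal value of 1.04. A start of *Tnfrsf23*, a decoy receptor gene of the *Kcnq1* cluster, lay inside a peak. From length, 2.92 of 10 genes that set or keep imprints were expected to have a peak in the gene or within 10 kb. Such a peak was found for 4 of the 10, beside 26.0% of all genes. They were *Dnmt1* and *Dnmt3a*, the maintenance and a de novo DNA methyltransferase, with 1 and 2 peaks in the gene, *Dppa3*, which protects maternal methylation in the zygote, at 6978 bp, and *Setdb1*, a histone H3 lysine methyltransferase, at 2908 bp. *Zfp57*, *Zfp445* and *Trim28* had their nearest peaks at 18403, 73319 and 79456 bp.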

How the data were processed

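DamID-seq libraries of 5 Dam-Zfp266 and 5 Dam only samples were processed by the authors, who trimmed reads with Cutadapt, aligned them to GRCm38 (GRCm38.p6 in the submitters' processing notes) with BWA, removed mitochondrial and blacklisted reads with SAMtools and BEDtools, used Rsubread for the counts of each DpnII fragment and ran callPeak of Daim across the samples. For Daim, Rsubread, BWA and Cutadapt, the version is not given in the sources used here. The deposited list gives each peak a score and a signal value, and the authors' peak caller also gave a −log10 p, not used here, and a −log10 q. The lowest −log10 q was 1. Read depth is unknown, so no precision from depth was computed. Coordinates are 1-based, whereas the list counts starts from 0, and all 30238 peak ends fell within a GATC site of GRCm38.

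Genes spanned all their curated RefSeq transcripts (45756 in all). Expected counts sum, over the members, the share of other genes with a peak in the same of 10 bands of gene length. The B1 consensus (148 bp) was extended from the most abundant word of 20 bases in masked sequence of chromosome 19, matched *Rn7s1*, a 7SL RNA gene, at 85.7% over 56 bp, and was searched with blastn 2.17.0 (e-value limit 10). The sequences of B1 SINEs are not reported here. Python 3.11.15, numpy 2.4.6, pandas 2.3.3, pysam 0.24.0, scipy 1.17.1 and matplotlib 3.10.9 were used. The counting was tested on simulated data.

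The members and lists were chosen with earlier results of these data known. Genes were named by a rule: every member, with each of its peaks or, above 4, the highest by signal value, the distance of the 5 nearest and 5 farthest others, members 10 to 20 kb from a peak, neighbours with a peak in the gene, genes of imprint control within 10 kb, and *Zfp266*. *Zfp57*, *Zfp445* and *Trim28* and the peaks singled out by sequence or by a transcript start were named after their values were seen. Alternatives covered the distance limit, stricter peaks, the midpoint, the gene models, the comparison genes and the feature definitions. Read coverage was not used here.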

Additional observations from a re-analysis of the deposited data

How the results depend on the processing

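No paired analysis was possible because the peak list pools the samples and holds no value of a single one, and for the same reason no replicate could be left out. The count of 21 genes with a peak in the gene or within 10 kb stayed within 1.5 times under every alternative tried (5 kb, 50 kb, the better-scoring peaks, split at the median, the peak midpoint, other gene models, GENCODE vM21, and 1 gene for each group whose windows touch) except the stricter peaks. Within 50 kb it was 31 (67.4%), but 48.8% of all genes had a peak that near, so the ratio of the shares was lower. With the stricter peaks it was 10, the count with a peak in the gene was 7 (15.2%, beside 5.35% of all genes), the number expected from length 5.77, the density 2.7 peaks per Mb (1.94 over all genes) and the count with a peak within 1 kb of a start 2, as fewer peaks enter. At starts, 17 genes (37.0%, beside 11.4% of all genes) had a peak within 5 kb and 4 a start inside a peak (1.83% of all genes), as the window differs. In the central 500 bp, where less sequence is searched, the share of peaks with a B1 SINE was 19% (13.3% of all peaks). With an AP-1 core motif it was 14.3% (15.7%). With TGCCGC it was 0.0% (4.06% of all peaks, and 1.71 of the 42 expected from peak length). Over whole peaks, TGCCGC was at 23.8% (14.4% of all peaks). Why the 42 peaks went from above to below all peaks was not tested. Of 29 alternatives, 19 stayed within 1.5 times (counts) or within the Wilson 95% interval (density and shares of peaks), and 10 did not. GENCODE vM21, 1 gene for each group whose windows touch, the short *Inpp5f* transcript, protein-coding members alone, the start inside a peak and the stricter peaks at starts were chosen after seeing the data.

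With 46 genes in 34 loci and 1 pooled list, small differences in counts cannot be told from chance, which was not tested. A peak is placed no more finely than its GATC fragments, and a gene counted within 10 kb is not shown to be controlled by the peak. Whether peaks lie on the methylated or the unmethylated allele was not tested, nor was gene expression. Peaks were found with a transgene, so binding of ZFP266 at its natural level was not measured.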
